A study of Mus musculus with 9 samples.

Results

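The HSP70 and HSP110 chaperone genes of MC38 cells, a mouse colon carcinoma line, were followed across 3 groups. The 10 genes were listed by name and family, with no cut on their measured values, although earlier results of these data were known: Hspa1a, Hspa1b, Hspa1l, Hspa2, Hspa4, Hspa4l, Hspa8, Hspa9, Hspa14 and Hsph1. All 10 were present among the 16509 genes of the expression table and all 10 were among the 11949 genes tested, although Hspa1a passed the filter on low counts only through its Cadict libraries. RNA was sequenced from Ctrl cells, from cells given the copper-cystine material alone (Cu-Cys) and from cells given Cadict, with 3 libraries in each group. Cadict is a nanodrug that joins copper and cystine with glucose oxidase and with GE11, a peptide that binds the epidermal growth factor receptor. The labels name DMSO as the treatment of the Ctrl cells, whereas the paper's figure legends for the RNA-seq name PBS. The table heads the Cadict columns with an abbreviation that was matched to Cadict from its components. Neither the labels nor the paper gives a dose or a time for these libraries. The study states in general that in vitro experiments were repeated independently, whereas the labels do not tie the 3 libraries of a group to separate cultures, so the p-values measure the spread between these libraries, which may be technical in part.

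HSP70 proteins bind exposed hydrophobic stretches of unfolded proteins and release them in a cycle driven by ATP. J-domain proteins bring clients and trigger ATP hydrolysis, and nucleotide exchange factors reopen the chaperone. The HSP110 proteins, Hspa4, Hspa4l and Hsph1, are distant relatives of HSP70 that act as exchange factors for it and also hold unfolded clients. In mammalian cells Hspa8 is the constitutive cytosolic HSP70, whereas Hspa1a and Hspa1b are the stress-inducible ones, switched on by the heat shock factor Hsf1 through heat shock elements in their promoters.

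The inducible pair lies in one gene cluster, so its upstream sequences are shown first, together with those of Hsph1 and of Hspa2, the member that fell in Cadict cells. On GRCm38, Hspa1b (chr17:34956436-34959238) and Hspa1a (chr17:34969190-34972156) are single-exon genes on the minus strand, 9951 bases apart. Hspa1l (chr17:34972703-34979285) starts 546 bases beyond Hspa1a on the plus strand. Each line below gives the 250 bases before the annotated start, 5′ to 3′ on the gene's own strand, from RefSeq on GRCm38.p6. Capitals mark heat shock elements of 2 units, here GAA and TTC in either order with any 2 bases between them, a motif that reads alike on both strands.
Hspa1b: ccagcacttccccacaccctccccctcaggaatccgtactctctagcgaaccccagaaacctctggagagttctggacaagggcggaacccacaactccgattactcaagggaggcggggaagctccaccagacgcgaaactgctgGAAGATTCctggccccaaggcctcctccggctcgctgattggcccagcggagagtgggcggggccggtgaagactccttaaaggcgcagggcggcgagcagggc
Hspa1a: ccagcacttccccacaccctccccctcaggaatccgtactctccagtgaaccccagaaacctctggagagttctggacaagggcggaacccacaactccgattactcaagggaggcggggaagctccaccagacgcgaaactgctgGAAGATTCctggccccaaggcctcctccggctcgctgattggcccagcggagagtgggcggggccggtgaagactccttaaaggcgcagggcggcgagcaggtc
Hsph1: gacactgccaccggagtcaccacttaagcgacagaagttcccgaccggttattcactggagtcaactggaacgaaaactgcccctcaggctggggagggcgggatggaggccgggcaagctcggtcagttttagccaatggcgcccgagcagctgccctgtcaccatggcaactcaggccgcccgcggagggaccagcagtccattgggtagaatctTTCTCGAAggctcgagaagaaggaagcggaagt
Hspa2: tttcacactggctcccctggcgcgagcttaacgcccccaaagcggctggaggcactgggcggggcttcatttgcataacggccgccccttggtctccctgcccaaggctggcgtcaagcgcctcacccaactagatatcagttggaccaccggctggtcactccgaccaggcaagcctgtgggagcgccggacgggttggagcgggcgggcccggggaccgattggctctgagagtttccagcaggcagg
The Hspa1b line spans chr17:34959239-34959488 and the Hspa1a line chr17:34972157-34972406, and 247 of their 250 bases were identical. The Hsph1 line spans chr5:149636337-149636586, before the first of the 2 annotated starts of that gene, and the Hspa2 line chr12:76404120-76404369. Units that differ from GAA and TTC were not searched for. The windows searched, which 8 members had, also held 50 bases after each start. Within them Hsph1 alone of the members had an element of 3 units, the 13 bases TTCTGGAAAGTTC at chr5:149636288-149636300, which begin 36 bases after the first annotated start and 15 bases after the second. The 2-unit count of that gene included matches inside the longer element.

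Of the 8 members with a window in the RefSeq table, 3 had a 2-unit element (Hspa1a, Hspa1b and Hsph1) and 5 had none (Hspa1l, Hspa2, Hspa4, Hspa4l and Hspa14). Hspa8 and Hspa9 were the members without an entry. Among all 32851 windows of the table, 15.1% held a 2-unit element and 0.603% a 3-unit element. In Hspa1a and Hspa1b the element began 104 bases before the start. These matches describe letters in the sequence and were not tested for binding.

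The depth was even, at 17905769 to 18293060 expected counts per library. The libraries differed in composition, however, and TMM scaling factors were 1.26 to 1.27 in Ctrl, 1.21 in Cu-Cys and 0.640 to 0.665 in Cadict libraries. Levels compared between groups are therefore CPM with TMM scaling (counts divided by the effective size of their library), and levels compared between genes are TPM, which also allow for transcript length. With library totals in place of TMM, the median log2 fold change of all genes moved by -0.95 in Cadict against Ctrl, so each direction below that depends on the scaling is given with it. The line also showed few epithelial transcripts: Epcam averaged 0.00 TPM in Ctrl, and 2 of the 7 epithelial markers listed exceeded 1 TPM in every library. The summed level of the epithelial markers was 4.22 to 6.24 TPM in Ctrl, 3.50 to 3.95 TPM in Cu-Cys and 11.6 to 13.3 TPM in Cadict libraries. That of 5 fibroblast markers, mostly Col1a2 (248 TPM on average in Ctrl), ran from 261 to 283 TPM in Ctrl, from 132 to 138 TPM in Cu-Cys and from 21.3 to 26.7 TPM in Cadict libraries. None of 4 endothelial markers and 1 of the 4 leukocyte markers listed (Cd68) exceeded 1 TPM in every library. The leukocyte sum was 6.89 to 7.47 TPM in Ctrl, 4.55 to 5.63 TPM in Cu-Cys and 14.8 to 18.2 TPM in Cadict libraries, and the endothelial sum did not exceed 1.31 TPM in any library. Their part in the results was not tested. In bulk RNA, a change in the cells that carry a transcript and a change in RNA per cell cannot be told apart.

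In Ctrl cells the family was dominated by Hspa8, which also uncoats clathrin vesicles. Hspa8 stood at 5026, 5241 and 5109 TPM in the Ctrl libraries, the 12th or 13th highest level of all genes. Hspa9, the HSP70 of the mitochondrial import motor, followed at 482 ± 4.46 TPM (SD, n = 3), Hsph1 at 275 ± 2.87 TPM and Hspa4 at 214 ± 9.16 TPM. Hspa4l (99.7 ± 2.90 TPM) and Hspa14 (98.6 ± 4.81 TPM) were the only neighbours in this order whose Ctrl libraries overlapped. Hspa1b, at 16.8 ± 0.932 TPM, lay just above Hspa2, at 14.4 ± 2.19 TPM. Hspa1l stood at 6.56 ± 0.377 TPM, and Hspa1a at most at 0.05 TPM.

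The order held in Cu-Cys cells, although there it was Hspa2 (8.43 ± 0.891 TPM) and Hspa1l (7.86 ± 0.847 TPM) whose libraries overlapped. In Cadict cells Hspa1b, at 9060 ± 1801 TPM, moved up beside Hspa8, at 9975 ± 846 TPM, and the libraries of these 2 genes overlapped. Hspa1a, at 474 ± 94.0 TPM, overlapped with Hspa4, at 500 ± 55.8 TPM. Hspa1l (2.45 ± 0.293 TPM) and Hspa2 (2.35 ± 0.158 TPM) overlapped at the bottom of the order. Cadict replicate 2 had the lowest TPM of its group for every member except Hspa1l.

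**Figure D1:**
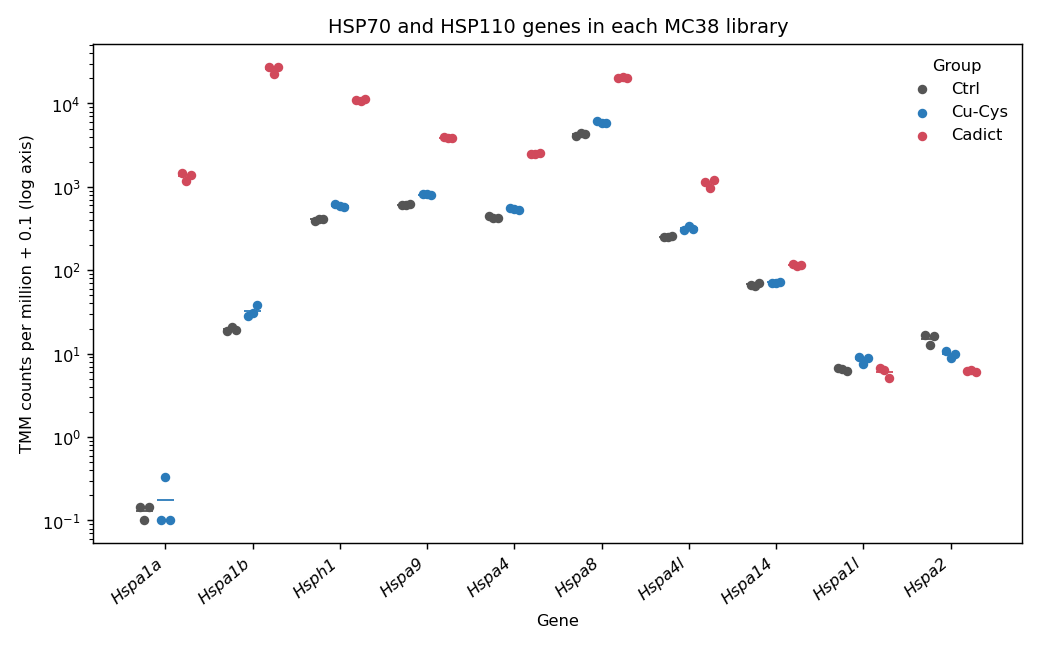
TMM CPM plus 0.1 (log axis) of each gene (horizontal axis) in the 9 libraries, one point per library, with a bar at the group mean. For Hspa1b the Cadict points lie between 22421 and 27644 CPM and the Ctrl points between 18.7 and 20.9 CPM, whereas for Hspa2 the Cadict points are the lowest.

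The first question was what Cadict did to these transcripts relative to Ctrl. Of the 10 genes, 8 rose, 1 fell and 1 was not called; 1 of the 8 was Hspa1a, which had passed the filter through its Cadict libraries and so had to differ, and without it 7 of 9 rose (edgeR's quasi-likelihood test, called where the p adjusted over all genes tested did not exceed 0.05). Of all genes tested, 40.6% rose and 47.1% fell in this comparison, and 87.7% were called in either direction. At the stricter threshold that the study used, a change of 2-fold or more with an adjusted p no higher than 0.001, 6 of the 9 other members were higher and 1 lower, beside 20.7% and 27.1% of all genes. The median log2 fold change was 2.27 over the members without Hspa1a and -0.13 over all genes tested. With library totals in place of TMM, 3 members were lower, beside 2161 higher and 8730 lower among all genes, against 4857 and 5627 with TMM.

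The inducible HSP70 genes showed the steepest rise. Hspa1b was at 18.7, 20.9 and 19.1 CPM in the Ctrl libraries and at 27644, 22421 and 27317 CPM in the Cadict libraries. The groups stood far apart, and in Cadict cells Hspa1b had the highest or second-highest count of any gene. The log2 fold change was 10.37 ± 0.14 (SE), a 1319-fold rise (adjusted p = 3.21e-17). Hspa1a, which encodes a nearly identical protein, had expected counts of 1.27, 0 and 1.26 in Ctrl and of 17124, 13380 and 16766 in Cadict libraries. Its level in Ctrl was at the limit of detection, since 3 counts were worth 0.130 to 0.131 CPM there. Over the group, 47270 rounded counts stood against 2, a ratio of 46497 after TMM scaling with a 95% interval for counting error alone of 12871 to 383950 (exact binomial).

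Reads of the 2 genes could not always be told apart. Of the 50-base windows of Hspa1a, 60.4% also occurred in other transcripts, nearly all in Hspa1b, and the share was 62.3% for Hspa1b. The deposited counts gave Hspa1a 4.95% ± 0.0501 (SD, n = 3) of the pair's counts in Cadict libraries, a split that rests on the authors' assignment of shared reads. With the counts of the pair summed, the log2 fold change was 10.44 ± 0.14 (adjusted p = 2.79e-17). The pair together took 1.91%, 1.51% and 1.91% of all counts in the Cadict libraries, against 0.00239% to 0.00264% in the Ctrl libraries.

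Hspa8 was at 4097, 4387 and 4301 CPM in Ctrl and at 20113, 20890 and 20499 CPM in Cadict libraries. The rise was 4.81-fold (log2 2.27 ± 0.05, adjusted p = 1.49e-15), and every Cadict library lay above every Ctrl library. Windows shared with other transcripts made up 38.6% of Hspa8, mostly with the pseudogene Gm15459. In the same comparison the libraries of the groups did not overlap for 87.5% of all genes tested.

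All 3 HSP110 genes rose, beside 40.6% of all genes tested. Hsph1, the HSP110 known to be heat-inducible, was at 395, 413 and 412 CPM in Ctrl and at 11147, 10671 and 11221 CPM in Cadict libraries, a 27.1-fold rise (log2 4.76 ± 0.06, adjusted p = 8.86e-18). Hspa4 was at 444, 429 and 424 CPM in Ctrl and at 2455, 2454 and 2539 CPM in Cadict libraries. Its rise was 5.74-fold (log2 2.52 ± 0.05, adjusted p = 6.36e-16). Hspa4l was at 249, 247 and 257 CPM in Ctrl and at 1158, 962 and 1223 CPM in Cadict libraries, a 4.44-fold rise (log2 2.15 ± 0.08, adjusted p = 4.16e-13). The groups did not overlap for any of these 3 genes, as was so for 87.5% of all genes tested. No window of Hsph1 or Hspa4 was shared with another gene.

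Among the organelle and ribosome HSP70 genes, Hspa9 was at 601, 610 and 627 CPM in Ctrl and at 3955, 3831 and 3907 CPM in Cadict libraries. It rose 6.36-fold (log2 2.67 ± 0.05, adjusted p = 2.61e-16). Hspa14 works on the ribosome with the J-domain protein Dnajc2. It was at 67.3, 64.2 and 70.9 CPM in Ctrl and at 118, 113 and 116 CPM in Cadict libraries. It rose 1.71-fold (log2 0.78 ± 0.05, adjusted p = 9.14e-10), but with library totals its log2 fold change was -0.18 and it was called lower. Its mean TPM likewise went from 98.6 ± 4.81 in Ctrl to 68.4 ± 7.75 in Cadict libraries.

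The HSP70 genes best known from male germ cells did not rise. Hspa2 was at 16.4, 12.6 and 16.2 CPM in Ctrl and at 6.03, 6.27 and 5.96 CPM in Cadict libraries. It fell 2.47-fold (log2 -1.31 ± 0.13, adjusted p = 1.51e-07), with no overlap between the groups. Hspa1l was at 6.62, 6.49 and 6.10 CPM in Ctrl and at 6.54, 6.27 and 4.95 CPM in Cadict libraries. These ranges overlapped (log2 -0.11 ± 0.13, adjusted p = 0.42), the sign turned to 0.01 with DESeq2 size factors, and the gene was called lower with library totals (log2 -1.07). The start of Hspa1l lies 546 bases from Hspa1a, and 9.58% of its windows were shared, with Hspa1a above all other genes.

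The size of several rises depended on the scaling, although their call did not. With library totals the log2 fold changes were 3.81 for Hsph1, 1.72 for Hspa9, 1.57 for Hspa4, 1.31 for Hspa8 and 1.199 for Hspa4l. On log2 TPM plus 1 (limma) they were 3.45, 1.36, 1.21, 0.96 and 1.16 in the same order.

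**Figure D2:**
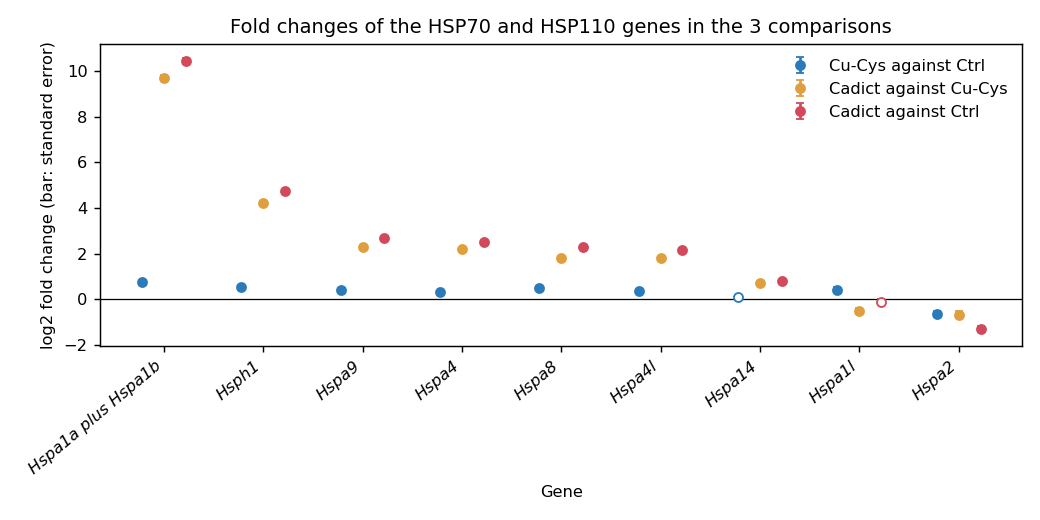
log2 fold change (vertical axis) with its standard error for each gene (horizontal axis) in the 3 comparisons, with the counts of Hspa1a and Hspa1b summed; open circles were not called at an adjusted p of 0.05. The summed pair stands at 10.44 in Cadict against Ctrl and at 0.73 in Cu-Cys against Ctrl, and Hspa2 lies below 0 in all 3 comparisons.

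The second question was what the copper-cystine material did without glucose oxidase and GE11. In Cu-Cys against Ctrl, which uses the same Ctrl libraries, 7 members rose, 1 fell and 2 were not called, and the changes were small. Of all genes tested, 22.6% rose and 22.4% fell here, and 45% were called in either direction. No member reached a fold change of 2 at an adjusted p of 0.001, beside 0.167% of all genes higher and 1.47% lower. At an unadjusted p under 0.05 edgeR gave 7 members higher and 1 lower, beside 3170 higher and 3107 lower among the 11949 genes tested. The median log2 fold change was 0.40 over the members and 0.01 over all genes. On log2 TPM plus 1, 4 members were higher, beside 897 higher and 3516 lower among all genes. Hspa4, Hspa4l and Hspa1l were no longer called there.

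Hspa1b was at 28.1, 30.5 and 38.8 CPM in the Cu-Cys libraries, all above the 18.7 to 20.9 CPM of Ctrl, and rose 1.66-fold (log2 0.73 ± 0.11, adjusted p = 0.000138). Hsph1, at 620, 591 and 582 CPM, rose 1.47-fold (log2 0.55 ± 0.05, adjusted p = 5.94e-07). Hspa8, at 6117, 5870 and 5847 CPM, rose 1.39-fold (log2 0.48 ± 0.05, adjusted p = 1.74e-06). In each of these the Cu-Cys libraries stood above the Ctrl libraries without overlap, as did those of 61.2% of all genes, in one direction or the other.

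Hspa9, at 814, 813 and 800 CPM, rose by 0.40 ± 0.04 on the log2 scale (adjusted p = 5.96e-06). Hspa4 ran from 525 to 561 CPM and rose by 0.33 ± 0.05 (adjusted p = 6.07e-05), and Hspa4l ran from 304 to 338 CPM and rose by 0.34 ± 0.07 (adjusted p = 0.00184). Hspa1l, at 9.09, 7.50 and 8.85 CPM, rose by 0.40 ± 0.11 (adjusted p = 0.00715). Hspa2 was again the member that fell, at 10.8, 8.73 and 9.76 CPM (log2 -0.63 ± 0.11, adjusted p = 0.000285). Hspa14, at 70.3, 71.0 and 73.1 CPM, overlapped with Ctrl and was not called (log2 0.08 ± 0.05, adjusted p = 0.206), and its sign turned to -0.06 on log2 TPM plus 1. Hspa1a was not called either: its expected counts of 0, 5.14 and 0.34 gave 5 rounded counts against 2, a ratio of 2.64 with a 95% counting interval of 0.432 to 27.7.

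The third question was what Cadict added over the copper-cystine material. In Cadict against Cu-Cys, which shares its libraries with the other comparisons, 8 members rose and 2 fell, or 7 and 2 without Hspa1a. Of all genes tested, 40.3% rose and 45.6% fell, and 85.9% were called in either direction. At the stricter threshold 6 of the 9 members other than Hspa1a were higher and 0 lower, beside 18.6% and 23.6% of all genes. The median log2 fold change was 1.81 over the members without Hspa1a and -0.10 over all genes. Library totals raised the number of lower members to 3, because Hspa14 turned, beside 2062 higher and 8598 lower among all genes, against 4819 and 5444 with TMM.

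Hspa1b rose 795-fold over Cu-Cys (log2 9.64 ± 0.14, adjusted p = 6.05e-17), and Hspa1a had a ratio of 17607 (95% counting interval 7544 to 54228). Hsph1 rose 18.4-fold (log2 4.205 ± 0.05, adjusted p = 2.74e-17). For Hspa9, Hspa4, Hspa4l and Hspa8 the rises were 4.82-fold, 4.57-fold, 3.51-fold and 3.45-fold. Hspa14 rose by 0.69 ± 0.05 on the log2 scale (adjusted p = 4.27e-09), but stood at -0.19 with library totals. Hspa2 fell by 0.68 ± 0.14 (adjusted p = 0.000371). The Cadict and Cu-Cys libraries did not overlap for any of the 10 genes, as was so for 85% of all genes tested. Hspa1l, which had risen with Cu-Cys, fell by 0.52 ± 0.13 (adjusted p = 0.00134), a difference that kept its sign and stayed called at an adjusted p of 0.05 under each alternative fit, but that with TMM was under 2-fold and so did not reach the stricter threshold.

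The make-up of the family was then compared within libraries. Shares of the family TPM need no scaling between libraries, whereas shares of all counts and summed TPM are relative to the library total. The 10 genes together took 0.769% ± 0.0161 (SD, n = 3) of all counts in Ctrl, 1.01% ± 0.0201 in Cu-Cys and 4.34% ± 0.295 in Cadict cells. Their summed TPM was 6332 ± 95.4, 7909 ± 164 and 24589 ± 3318. The pair Hspa1a and Hspa1b made up 0.263%, 0.278% and 0.256% of the family TPM in Ctrl and 40.5%, 35.3% and 39.8% in Cadict libraries. Hspa8 went from 80.9% ± 0.492 of the family TPM in Ctrl and 81.8% ± 0.261 in Cu-Cys to 40.8% ± 2.49 in Cadict cells.

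The other members also shifted. Hsph1 held 4.35% ± 0.0201 of the family TPM in Ctrl, 4.63% ± 0.0375 in Cu-Cys and 12.4% ± 0.198 in Cadict cells. The share of Hspa9 went from 7.61% ± 0.170 in Ctrl to 5.07% ± 0.148 in Cadict cells, although its own level rose. For the pair's share the Cadict libraries did not overlap with either other group. The exact permutation test, two-sided, gave p = 0.1 for Cadict against Ctrl and against Cu-Cys, the smallest that 3 against 3 libraries allow, and p = 0.2 for Cu-Cys (0.321% ± 0.0613) against Ctrl (0.266% ± 0.0109).

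**Figure D3:**
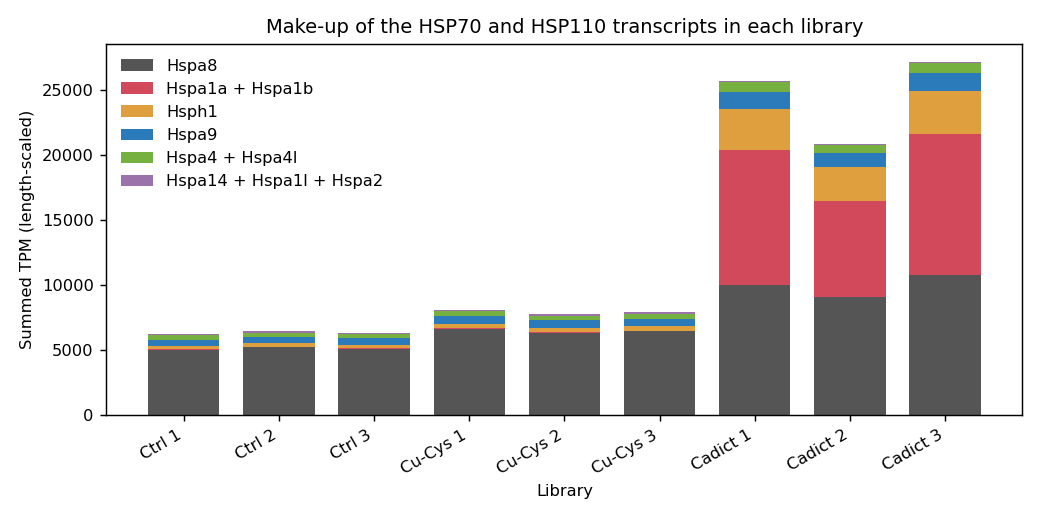
Summed TPM (vertical axis) of the 10 genes in each of the 9 libraries (horizontal axis), stacked by gene. Hspa8 fills most of each Ctrl and Cu-Cys column, and in the Cadict columns the summed pair Hspa1a and Hspa1b takes 35.3% to 40.5%.

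The partners of the HSP70 cycle were counted from lists of 42 genes, all tested. In Cadict against Ctrl 33 rose and 7 fell, with a median log2 fold change of 1.57, whereas 40.6% of all genes rose and 47.1% fell. Hspb1, among the 33, passed the filter on low counts only through its Cadict libraries and so had to differ. In Cu-Cys against Ctrl 27 rose and 3 fell (median 0.25), beside 22.6% and 22.4%, but none reached the stricter threshold. On log2 TPM plus 1 there were 12 higher and 6 lower partners there, beside 897 higher and 3516 lower genes among the 11949 tested. In Cadict against Cu-Cys 34 rose, Hspb1 again included, and 7 fell (median 1.45), beside 40.3% and 45.6%. With library totals, 26 partners were higher and 13 lower in Cadict against Ctrl, beside 2161 and 8730 of all genes. In Cadict against Cu-Cys the numbers were 24 and 12, beside 2062 and 8598.

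Of the 10 cytosolic and nuclear J-domain genes, 9 rose and 1 fell in Cadict against Ctrl, beside 40.6% and 47.1% of all genes. Dnaja4 went from 3.86 ± 0.284 to 120 ± 4.604 CPM (log2 4.95 ± 0.07, adjusted p = 6.20e-17). Dnajb1, the stress-inducible HSP40, went from 96.7 ± 2.91 to 2338 ± 92.5 CPM (log2 4.595 ± 0.06, adjusted p = 1.14e-17), and Dnajb4 rose by 3.00 ± 0.05 on the log2 scale. Dnajc2, the ribosomal partner of Hspa14, rose by 1.38 ± 0.05, a call that was lost on log2 TPM plus 1 (0.07). Cu-Cys cells showed 7 of the 10 risen and 3 not called, where 22.6% of all genes rose, and none reached the stricter threshold.

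Of the 5 mitochondrial partners, 3 rose and 2 were not called in Cadict against Ctrl, where 40.6% of all genes rose. Grpel1, the exchange factor of Hspa9, rose by 2.26 ± 0.08 on the log2 scale (adjusted p = 4.40e-13). Dnajc19, a J-domain protein of the import motor (0.89 ± 0.14), and Grpel2, a second exchange factor (0.88 ± 0.06), rose with TMM but stood at -0.06 and -0.07 with library totals. With Cu-Cys 3 of 5 rose, beside 22.6% of all genes.

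Of the 6 other nucleotide exchange factors, 4 rose and 2 fell in Cadict against Ctrl, beside 40.6% and 47.1% of all genes. Bag3, which hands HSP70 clients to autophagy, went from 60.1 ± 2.76 to 1086 ± 27.2 CPM (log2 4.18 ± 0.06, adjusted p = 4.39e-17). Hspbp1 rose by 1.79 ± 0.06. Bag5 went the other way, from 32.6 ± 1.02 to 8.11 ± 0.869 CPM (log2 -2.005 ± 0.08, adjusted p = 2.96e-12). The copper-cystine material alone gave 5 of the 6 risen, beside 22.6% of all genes.

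All 3 co-chaperones with TPR repeats rose in Cadict cells with TMM, as did 40.6% of all genes. Stip1, which links HSP70 to HSP90, rose by 2.34 ± 0.05 on the log2 scale, and St13, which stabilises client binding, by 2.15 ± 0.05. Stub1, the ubiquitin ligase of HSP70 clients, rose by 0.26 ± 0.08 (adjusted p = 0.00802), its groups overlapped, and it stood at -0.69 with library totals. Among the heat shock factors, Hsf1 went from 53.9 ± 0.904 to 66.8 ± 1.14 CPM (log2 0.31 ± 0.05, adjusted p = 4.16e-05) but stood at -0.64 with library totals. Hsbp1, a binder of heat shock factors, rose by 0.57 ± 0.07 and stood at -0.39 with library totals. Hsf2 rose by 1.09 ± 0.07, a call that was lost with library totals (0.13) and turned on log2 TPM plus 1 (-0.27).

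Of 5 other members of the HSP70 superfamily, 1 rose and 4 fell in Cadict against Ctrl, beside 40.6% and 47.1% of all genes. Hspa5, the HSP70 of the endoplasmic reticulum, rose by 0.82 ± 0.05 with TMM and stood at -0.13 with library totals. Hyou1, its exchange factor, fell by 0.39 ± 0.05 on the log2 scale. Hspa12b, a distant relative known from endothelium, went from 21.7 ± 1.95 to 1.42 ± 0.0255 CPM (log2 -3.92 ± 0.15, adjusted p = 1.06e-12).

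All 10 genes of the list of other heat shock inducible genes rose in Cadict against Ctrl, beside 40.6% of all genes. Their median log2 fold change was 3.25. Hspb1, 1 of the 10, averaged 0.0144 CPM in Ctrl and 20.6 CPM in Cadict libraries. It passed the filter on low counts only through its Cadict libraries and so had to differ. The small heat shock protein Hspb8, a partner of Bag3, went from 47.1 ± 2.34 to 862 ± 5.16 CPM (log2 4.19 ± 0.05, adjusted p = 2.31e-17). Hspe1, the mitochondrial co-chaperonin, rose by 3.78 ± 0.09, and Cryab, another small heat shock protein, by 3.72 ± 0.05. The count was 8 risen and 1 fallen in Cu-Cys against Ctrl, with a median of 0.42, beside 22.6% and 22.4% of all genes.

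**Figure D4:**
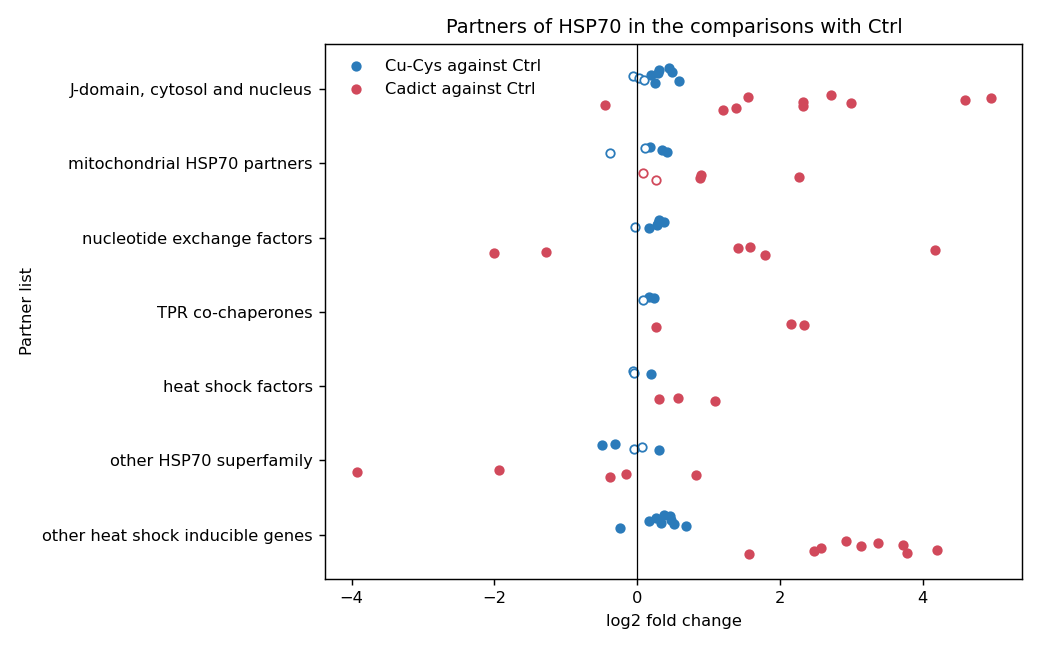
log2 fold change (horizontal axis) of the partner genes, grouped by list (vertical axis), in Cu-Cys against Ctrl and Cadict against Ctrl; each point is 1 gene, open points were not called at an adjusted p of 0.05, and Hspb1 is left out because its Ctrl counts were at the limit of detection. The Cadict points of the other heat shock inducible genes all lie above 0, and those of the other HSP70 superfamily run from -3.92 to 0.82.

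The genes whose pattern over the 9 libraries was most like that of a member were found by the root mean square difference of their log2 CPM, each relative to its Ctrl mean. Among 8542 candidate genes outside the family, Hspa8 had close neighbours: Eif3j1 (0.03), Cct2, a subunit of the cytosolic chaperonin (0.03), Utp4 (0.06), Tbce (0.07) and Atp6v0c (0.07). The nearest to Hspa2 were Dock6 (0.12), Arhgef25 (0.13), C1ra (0.13), Usp22 (0.14) and Ssbp3 (0.14).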

How the data were processed

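MC38 RNA-seq libraries (3 Ctrl, 3 Cu-Cys, 3 Cadict) were analysed from the table the authors deposited, with an expected count, an FPKM, a TPM and a size-factor-scaled signal for each gene and library. The deposited expected counts are estimates of reads per gene without normalization. The FPKM and TPM were scaled by the authors for length and library. The deposited signal and the columns of group averages were not used. Per the submitters' processing notes, HISAT2 2.1.0, Bowtie2 2.3.4.3 and RSEM 1.3.1 were used, with GRCm39 and GRCh38.p13 named as builds without a role. Positions and sequences here are from GRCm38 annotation (GENCODE and RefSeq) and are not the build of the counts.

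Expected counts were rounded and fitted in R 4.3.3 with edgeR 4.0.16 (TMM, filterByExpr, one quasi-likelihood model over the 9 libraries, Benjamini-Hochberg over 11949 genes). The method was tested on simulated data in which few genes changed, evenly up and down. That test does not bear on the choice of scaling. TMM CPM were computed without a prior count, and 3 counts were taken as the limit that a count of 0 allows. Standard errors were the log2 fold change over the root of the F statistic. Hspa1a ratios used an exact binomial interval. Intervals and limits cover counting error only. Figures used Python 3.11.15 with matplotlib 3.10.9.

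The genes, partner lists and naming rule were chosen with earlier results of these data known. Named partners were, in each list, the 3 with the largest absolute change in Cadict against Ctrl at a mean of at least 10 CPM, plus Hsf1, Dnajb1, Bag3 and Dnajc2. Pattern likeness was measured for the members with the largest and the smallest log2 fold change and for Hspa8, among genes of at least 10 CPM, with a prior of 0.5; it is not given for Hspa1a, the member with the largest change, because its Ctrl level was at the limit of detection. Alternatives were DESeq2 1.42.0 size factors, library totals, a minimum of 10 counts in every library, no filter, a replicate block, DESeq2's Wald test, limma 3.58.1 on log2 TPM plus 1 and on log2 FPKM plus 1 or 0.1, a fit of only the 2 groups compared, the study's threshold (2-fold, adjusted p 0.001), the summed counts of Hspa1a and Hspa1b, and leaving out each library in turn.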

Additional observations from a re-analysis of the deposited data

How the results depend on the processing

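Of 990 recomputed log2 fold changes of single genes, 940 kept their direction and their side of the threshold, 37 turned in sign, 8 lost their call and 5 gained one. With library totals, Hspa14 stood at -0.18 in Cadict against Ctrl and -0.19 in Cadict against Cu-Cys, and in Cadict against Ctrl Dnajc19 stood at -0.065, Grpel2 at -0.071, Hspa5 at -0.13, Hsbp1 at -0.39, Hsf1 at -0.64 and Stub1 at -0.69. With limma on log2 TPM plus 1 the values in the same order were -0.53, -0.47, -0.44, -0.38, -0.49, -0.74, -0.95 and -1.05, with Hsf2 at -0.27 and, in Cu-Cys against Ctrl, Hspa14 at -0.059. On log2 FPKM plus 1 they were -0.18, -0.20, -0.11, -0.066, -0.14, -0.40, -0.60 and -0.71, and on log2 FPKM plus 0.1 they were -0.19, -0.20, -0.11, -0.075, -0.14, -0.41, -0.62 and -0.72. These settings lack the TMM factors, which moves the median of all genes down in Cadict libraries. Hspa1l in Cadict against Ctrl, not called with TMM, stood at 0.0050 with DESeq2 size factors and at 0.0010 with DESeq2's Wald test. Leaving out Cu-Cys replicate 2, which held 5 of the group's Hspa1a counts, turned that uncalled gene in Cu-Cys against Ctrl, and its fitted log2 fold change ran from -2.40 to 1.77 over the libraries left out.

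The members that were lower in Cadict against Ctrl numbered 3 with library totals, log2 TPM and both FPKM settings, against 1 with TMM. Of all genes, 8730 were lower with library totals, 9542 with log2 TPM and 8703 and 8709 with the FPKM settings, against 5627 with TMM. In Cu-Cys against Ctrl, log2 TPM plus 1 gave 5 members changed and 4 higher, beside 4413 changed and 897 higher among all genes. The stricter threshold gave 0 members in Cu-Cys against Ctrl, beside 0.167% of all genes higher and 1.47% lower. It gave 0 lower members in Cadict against Cu-Cys, where 23.6% of all genes were lower. Lower partners in Cadict against Ctrl numbered 13 with library totals and both FPKM settings, 16 with log2 TPM and 4 at the stricter threshold. Of the 11949 genes tested, 8703 to 9542 were lower with library totals, FPKM or TPM, and 27.1% at the stricter threshold. In Cadict against Cu-Cys lower partners numbered 12 with library totals, 13 with both FPKM settings, 18 with log2 TPM and 4 at the stricter threshold. Of the 11949 genes tested, 8532 to 9271 were lower there with library totals, FPKM or TPM, and 23.6% at the stricter threshold. With log2 TPM 21 partners were higher, beside 1367 of all genes. In Cu-Cys against Ctrl, log2 TPM gave 18 partners changed, 12 higher and 6 lower, beside 4413, 897 and 3516 of all genes. The stricter threshold gave 0 partners there, beside 0.167% of all genes higher and 1.47% lower. As a share of summed expected counts, the pair Hspa1a and Hspa1b made up 0.322% of the family in Ctrl and 0.391% in Cu-Cys.

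The correlations of same-numbered deviations ran from -0.209 to 0.177 over 8286 genes. Differently numbered libraries were not compared, so these values cannot tell whether replicate numbers pair the libraries. With the replicate block, 9 members changed in Cadict against Ctrl, 8 in Cu-Cys against Ctrl and 10 in Cadict against Cu-Cys, Hspa1a included. These numbers were the same as without the block. Of the 11949 genes tested, 10417, 5141 and 10188 were called with it in the same order. Depth limited Hspa1a, which was within the limit of 3 counts in every Ctrl library and in each Cu-Cys library but replicate 2 (5.14 counts).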
